A study of Drosophila melanogaster with 21 samples.

Results

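The nuclear oxidative phosphorylation genes were taken as every gene whose BDGP6 symbol begins with ND-, COX, ATPsyn, UQCR- or Sdh, leaving out the mitochondrially encoded genes. The name rule used no measured value and found 88 of the 13989 genes to which transcripts could be assigned. Of these, 40 belong to complex I, 8 to complex II, 9 to complex III, 16 to complex IV and 15 to complex V. The 8 of complex II include Sdhaf3, an assembly factor rather than a subunit. They lie across the genome, with 20 on chromosome 3R, 20 on 3L, 17 on 2R, 16 on 2L, 13 on X and 2 on 4.

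Oxidative phosphorylation takes place in the inner mitochondrial membrane. Complexes I and II pass electrons from NADH and succinate to ubiquinone, complex III hands them to cytochrome c, and complex IV gives them to oxygen. Complexes I, III and IV pump protons as they do so, and complex V, the ATP synthase, uses the return flow of protons to make ATP. Most subunits are encoded in the nucleus, made on cytosolic ribosomes and imported, while a few core subunits of complexes I, III, IV and V are encoded by mitochondrial DNA. Flies also carry duplicates of many nuclear subunit genes, often named with an added L, and such duplicates are known for expression in the testis.

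LS2 is a fly paralog of the splicing factor subunit U2af50, which binds the end of introns, and is known from the testis. S2 cells, a cultured embryonic fly line, each carried a stably integrated copper-inducible gene under hygromycin selection, and all groups, GFP included, received 500 µM copper sulfate for 53 h before polyadenylated RNA was sequenced. Each of the 7 groups has 3 libraries: GFP with no added LS2, wild-type LS2 (WT), and 5 altered forms. These are d38 (W62A, D63A, I64A), RRM2 (F285D, F287D), Beta5 (K192E, R194E), GSlinker (residues H197 to P233 exchanged for GGS motifs) and the SF1 mutant (E370K, D371K). The number of lines per construct is not stated in the labels, and since each construct was carried by its own cells, line and construct cannot be told apart. The labels do not say that replicates were separate cultures, so the p-values measure the spread between these libraries, which may be technical.

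Estimated counts summed to between 17667236 and 38553848 per library. LS2 itself stood at 1.46 to 3.97 TPM (length-corrected abundance with the same total in every library) in the GFP libraries and at 5175 to 8216 TPM in the other 18. Markers of S2-like blood cells summed to 702 to 1644 TPM in every library, with srp at 88.3 or more and only NimC1 near 0, at 0.192 or less. Fat body markers summed to at most 0.184 TPM and muscle markers to at most 0.194. Neuron markers summed to between 2.28 and 8.23 TPM. Testis markers summed to between 15.3 and 23.8 TPM, nearly all of it mia at 13.7 to 22.0, while can, aly, sa, dj and Mst87F were each at or below 0.313. The libraries formed 2 sets. Among transcripts over 2000 nt, effective length departed from length with an SD of 68.4 to 88.6 nt in GFP, WT, d38 and RRM2 libraries, and of 278 to 379 nt in Beta5, GSlinker and SF1 mutant libraries. For Beta5, GSlinker and the SF1 mutant, set and mutation therefore cannot be told apart in a comparison with GFP or WT. WT replicate 3 and SF1 mutant replicate 1 stood apart from the other libraries of their groups in the genes described here, so medians, counts of calls and the lowest fold changes of the SF1 mutant are also given without them.

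Of the 88 genes, 68 passed the filter on low counts: 34 of complex I, 5 of complex II, 6 of complex III, 11 of complex IV and 12 of complex V. The other 20 reached at most 10 counts in any library. The duplicates account for nearly all of these: 24 of the 88 genes are L paralogs, of which 19 fell below the filter and 6 had no count in any library, while of the 64 other genes only ND-B8 fell below it. The L paralogs together held 7.96, 9.07 and 11.7 TPM in the GFP libraries and 9.12, 10.2 and 9.68 TPM in the WT libraries. Across the 15 libraries with altered LS2 their sum ran from 8.80 to 14.1 TPM. The WT libraries lay within the GFP range, so no WT library stood above it.

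Among the 63 other genes that passed, abundance per length (TPM) differed between complexes. The median gene held 504 TPM in complex IV (8 genes), 441 in complex V (11 genes), 294 in complex III (6 genes), 114 in complex I (33 genes) and 59.5 in complex II (5 genes). The range within a complex was wide. Complex I ran from 71.9 TPM for ND-75 to 941 for ND-MLRQ, whose human counterpart NDUFA4 is now placed in complex IV. Complex V ran from 180 for ATPsynB to 1496 for ATPsynC, which encodes the subunit that is repeated around the membrane ring. The 68 genes are short and abundant: their median length was 665 nt (358 to 2667) against 1906 nt for all 8750 genes tested, and their median level 162 TPM against 20.3. Only 6.51% of all tested genes were shorter than the median member.

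The level of the set as a whole was first described per library, as the median over the 68 genes of log2(CPM + 0.1) minus its mean over the GFP libraries, where CPM is the count scaled to library size with TMM factors. The 3 GFP libraries stood at 0.07, −0.08 and 0.01 on this log2 scale. The WT libraries stood at −0.25, −0.26 and −0.02, so replicates 1 and 2 lay below every GFP library and replicate 3 lay among them. The d38 libraries stood at −0.07, −0.17 and −0.19 and the RRM2 libraries at −0.12, −0.22 and −0.25, the highest d38 library overlapping the GFP range and the RRM2 libraries all below it. Beta5 stood at −0.77, −0.60 and −0.70, GSlinker at −0.79, −0.96 and −0.65, and the SF1 mutant at −0.40, −0.76 and −0.80. All 9 of these libraries lay below all 12 others. In bulk RNA, fewer cells of a type and less RNA per cell cannot be told apart.

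**Figure D1:**
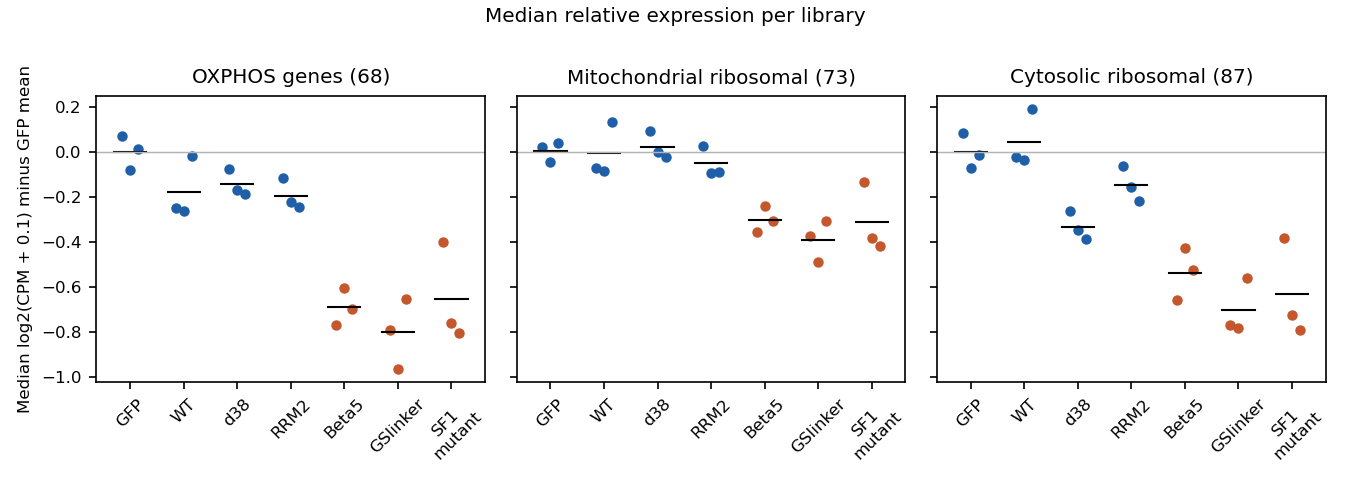
Median log2(CPM + 0.1), minus the mean over the GFP libraries, of each library for the 68 oxidative phosphorylation genes, the 73 mitochondrial ribosomal protein genes and the 87 cytosolic ribosomal protein genes. Each point is a library, the line is the mean of the 3 libraries of a group, and blue and orange mark the 2 library sets. Oxidative phosphorylation genes averaged −0.18 in WT, −0.14 in d38 (a sign that turns on the log2(TPM + 1) scale) and −0.19 in RRM2, and between −0.65 and −0.80 in Beta5, GSlinker and the SF1 mutant.

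Summed TPM gave a partly different order. All 88 genes together held 21945 ± 455 TPM in GFP (SD, n = 3), 18539 ± 800 in WT, 21567 ± 314 in d38 and 19394 ± 166 in RRM2. They held 15410 ± 1003 TPM in Beta5 and 14587 ± 691 in GSlinker, and the SF1 mutant held 16012 ± 2281. The d38 libraries, at 21927, 21417 and 21356 TPM, overlapped the GFP libraries at 22404, 21494 and 21937. The WT libraries, at 17915, 18261 and 19442, all lay below them. In summed CPM the mean of d38 lay nearer to that of WT, with 12766 ± 575 in GFP (SD, n = 3), 11061 ± 742 in WT and 11426 ± 367 in d38.

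When wild-type LS2 was compared with GFP, 19 of the 68 genes passed an adjusted p of 0.05 (edgeR quasi-likelihood test, adjusted over all 8750 genes), and all 19 were lower. The changes were small, and the median of the 68 was a log2 fold change of −0.16, against −0.00 for all genes tested. Of all tested genes 34.2% were called and 17.1% were called lower, beside 27.9% of the members, all of them lower. The estimated change lay below 0 in 60 of the 68 genes (88.2%), beside 50.3% of all tested genes. In 22 of the 68, all 3 WT libraries lay below all 3 GFP libraries, where 25.1% of all tested genes did so. By complex, 8 of 34 genes fell in complex I, 1 of 5 in complex II, 2 of 6 in complex III, 4 of 11 in complex IV and 4 of 12 in complex V. The count depended on single libraries: it was 6 without GFP replicate 1, 10 without GFP replicate 3, 7 without WT replicate 1, 11 without WT replicate 2 and 27 without WT replicate 3. The median without WT replicate 3 was −0.26.

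In complex I, ND-B14 (chromosome 2R, 10897144 to 10897885), an accessory subunit, stood at 56.1, 50.6 and 57.1 CPM in the GFP libraries and 39.5, 36.0 and 47.3 CPM in WT. All WT libraries were below all GFP libraries, and the log2 fold change was −0.41 (SE 0.08, edgeR adjusted p = 0.000266). ND-75 (X, 8248651 to 8251687), the large iron-sulfur subunit of the arm that oxidises NADH, stood at 232, 211 and 213 CPM in GFP and 167, 170 and 182 in WT. Here too the groups did not overlap, at a log2 fold change of −0.34 (SE 0.10, edgeR adjusted p = 0.00962). ND-MLRQ (3L, 23339326 to 23345936), ND-ASHI (X, 6677262 to 6679118) and ND-B17 (2L, 15749319 to 15751078), the latter pair accessory subunits, fell by 0.34, 0.31 and 0.30 on the log2 scale. By contrast ND-51 (2L, 6060842 to 6062757), the subunit that binds NADH and its flavin, stood at 108, 101 and 107 CPM in GFP and 91.8, 94.5 and 105 in WT. The 2 groups overlapped through WT replicate 3, and the log2 fold change of −0.12 had an edgeR adjusted p of 0.185. The calls of ND-75 and ND-B17 were lost without GFP replicate 1, and that of ND-ASHI without GFP replicate 1 or 3 or WT replicate 1 or 2.

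In complex II the flavoprotein gene SdhA (2R, 19391863 to 19395971), which oxidises succinate, stood at 216, 197 and 201 CPM in GFP and 160, 166 and 165 in WT. The groups were well apart and the log2 fold change was −0.32 (SE 0.07, edgeR adjusted p = 0.000701). SdhB (2R, 6807626 to 6809172), the iron-sulfur subunit, stood at 188, 165 and 180 CPM in GFP and 144, 155 and 177 in WT, with overlap through WT replicate 3. Its log2 fold change was −0.16 (edgeR adjusted p = 0.306).

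In complex III the core subunit genes UQCR-C1 (3R, 14890231 to 14892387) and UQCR-C2 (3L, 16584124 to 16586111) both fell. UQCR-C2 stood at 384, 316 and 326 CPM in GFP and 255, 260 and 286 in WT, without overlap. The log2 fold change was −0.36 for UQCR-C2 (SE 0.12, edgeR adjusted p = 0.0221) and −0.36 for UQCR-C1 (SE 0.13, edgeR adjusted p = 0.0383). The call of UQCR-C2 was lost without GFP replicate 1 or WT replicate 1. That of UQCR-C1 was lost without GFP replicate 1 or 3 or WT replicate 1 or 2.

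In complex IV, 4 small nuclear subunit genes fell. COX6B (X, 19740537 to 19744335) stood at 310, 274 and 289 CPM in GFP and 219, 209 and 258 in WT, without overlap, at a log2 fold change of −0.35 (SE 0.08, edgeR adjusted p = 0.00146). COX7C (2R, 10048353 to 10050066), COX5B (2L, 6557800 to 6559308) and COX7A (3R, 8339944 to 8341043) fell by 0.34, 0.26 and 0.26 on the log2 scale. The call of COX5B was lost without GFP replicate 1 or WT replicate 1, and those of COX7C and COX7A without GFP replicate 1 or 3 or WT replicate 1 or 2. COX4 (2L, 19958713 to 19960065), at a log2 fold change of −0.16 (edgeR adjusted p = 0.550), and COX5A (3R, 11819359 to 11820299), at −0.17 (adjusted p = 0.223), did not pass.

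In complex V, ATPsynC (3R, 31216145 to 31219630) stood at 1563, 1437 and 1518 CPM in GFP and 1214, 1200 and 1299 in WT. The groups did not overlap and the log2 fold change was −0.28 (SE 0.06, edgeR adjusted p = 0.00177). ATPsynO (3R, 15265591 to 15266690), the link between the catalytic head and the outer stalk, and ATPsynB (3L, 9729999 to 9731224), of that stalk, fell by 0.26 and 0.21 on the log2 scale. ATPsynbeta (4, 1031484 to 1034917), the catalytic subunit, fell least of the 4 called genes, from 2072, 2133 and 2167 CPM in GFP to 1855, 1911 and 1899 in WT. Its log2 fold change was −0.17 (SE 0.06, edgeR adjusted p = 0.0432), and the call was lost in 5 of the 6 fits that left out a library, all but the one without WT replicate 2. Those of ATPsynO and ATPsynB were lost without GFP replicate 1 or 3 or WT replicate 1 or 2. ATPsyngamma (3R, 29747704 to 29749163), the rotor shaft, stood at a log2 fold change of −0.19 (edgeR adjusted p = 0.327).

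**Figure D2:**
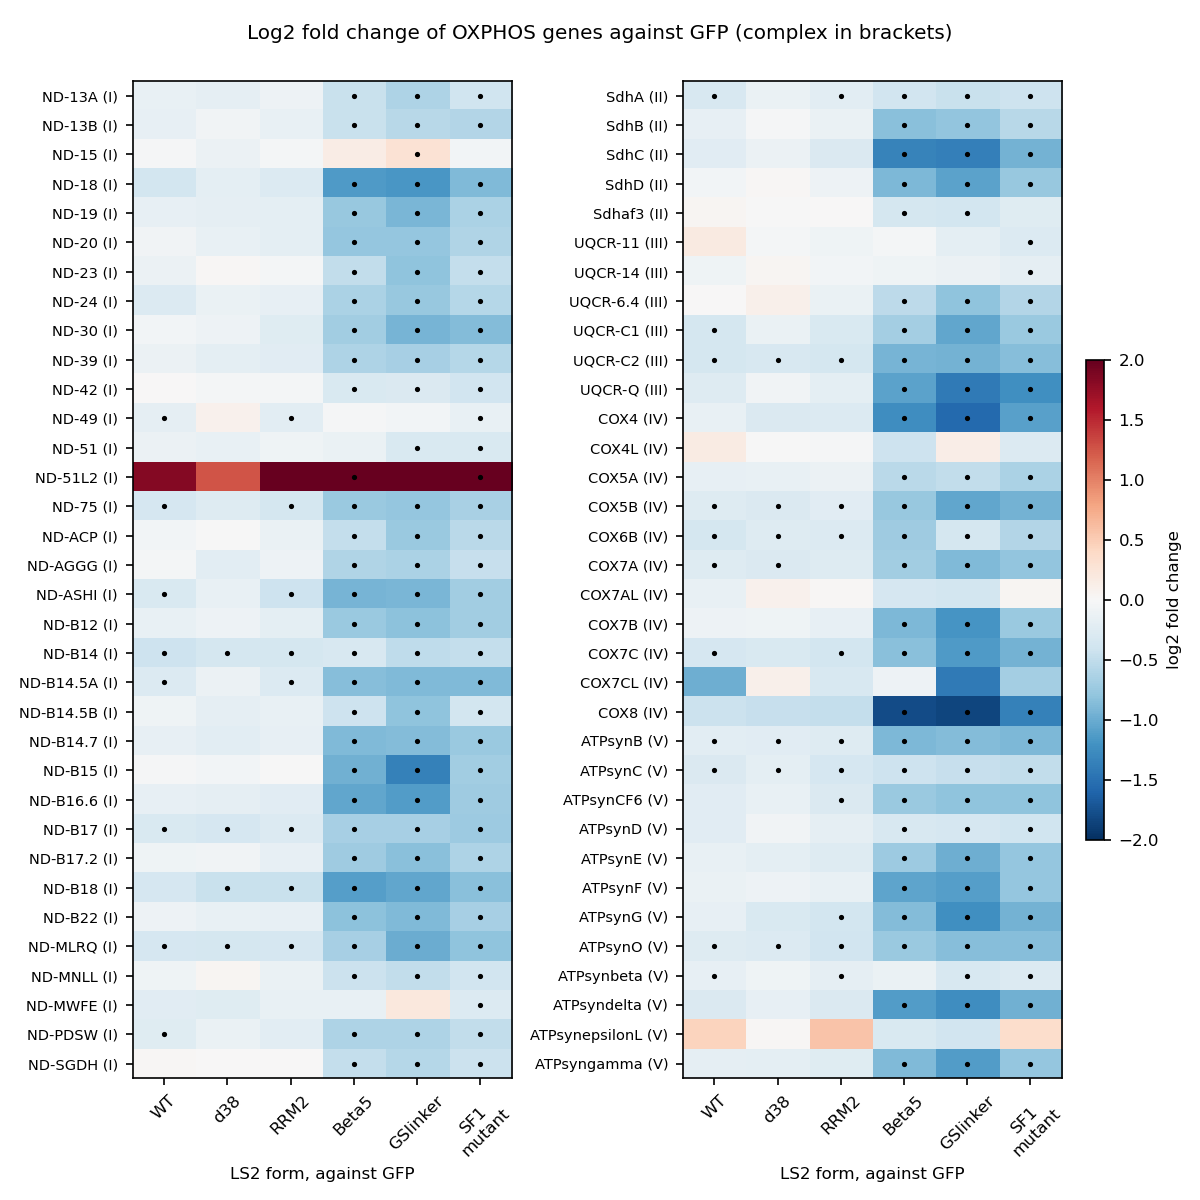
Log2 fold change against GFP of the 68 genes (rows, with the complex in brackets) in the 6 LS2 groups, on a colour scale from −2 to 2, where a dot marks an edgeR adjusted p under 0.05. Most cells are pale blue in the 3 columns WT, d38 and RRM2 and darker blue in the other 3, except ND-51L2, which rests on few counts and runs past the scale. The median of d38 turns from −0.14 to 0.02 on the log2(TPM + 1) scale, where the median of all genes is 0.12.

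The same comparison with GFP was made for d38 and RRM2, which lie in the library set of GFP and WT and share the GFP libraries with the comparison above. In RRM2, 19 of 68 genes were lower and 0 higher, with a median log2 fold change of −0.20. Of all tested genes 24.9% were called in RRM2 and 12.7% were called lower. In d38, 11 of 68 (16.2%) were lower and 0 higher, with a median of −0.14, while 30.3% of all tested genes were called and 15.2% were called lower. The share of members called lower in d38 was thus close to that of all genes. On the log2(TPM + 1) scale the median of the d38 members turned to 0.02, on which scale all genes shifted by 0.12, so the members lay 0.10 below the median gene. All 3 libraries lay below all 3 GFP libraries in 33 members in d38 and 38 in RRM2, where 29% and 26.4% of all tested genes did so. Estimated changes lay below 0 in 57 of the 68 genes in d38 and 63 in RRM2, beside 50.5% and 51.9% of all genes. Both counts of calls rested on single libraries: the RRM2 count was 5 without GFP replicate 1, 7 without GFP replicate 3, 9 without RRM2 replicate 2 and 6 without RRM2 replicate 3. The d38 count was 3 without GFP replicate 1, 5 without GFP replicate 3, and 4 without either d38 replicate 2 or 3.

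The member with the largest called fall was ND-B18 (X, 15063733 to 15064926), an accessory subunit of complex I, in both. It stood at 125, 102 and 119 CPM in GFP, 89.4, 84.1 and 81.8 in d38 and 91.7, 81.2 and 82.1 in RRM2, with no overlap with GFP. The log2 fold change was −0.44 (SE 0.14) in each, with edgeR adjusted p = 0.0194 in d38 and 0.0235 in RRM2. Both calls were lost without GFP replicate 1 or 3 or without replicate 2 or 3 of the altered form. In WT the same gene stood at 84.9, 83.5 and 105 CPM, also below GFP replicates 1 and 3 but overlapping replicate 2, at a log2 fold change of −0.34 (edgeR adjusted p = 0.0627). UQCR-C2 stood at 279, 272 and 272 CPM in d38 and at 270, 268 and 265 in RRM2, all below its GFP libraries, at −0.32 and −0.35 on the log2 scale (edgeR adjusted p = 0.0434 and 0.0311). Those calls were lost in 5 of 6 fits with a library left out, all but the one without GFP replicate 2. SdhA stood at 187, 185 and 185 CPM in d38 and 182, 176 and 174 in RRM2, between the GFP and the WT libraries, and was called in RRM2 (−0.21, edgeR adjusted p = 0.0267) and not in d38 (−0.14, adjusted p = 0.121). The RRM2 call of SdhA was lost in 5 of 6 such fits.

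Set directly against WT, the altered forms of this library set were close to it. Against WT, RRM2 had 0 of 68 genes called by edgeR and by DESeq2, 1 at an unadjusted p under 0.05, and a median log2 fold change of −0.02, while 8.11% of all tested genes were called, 4.08% higher and 4.03% lower. In d38 against WT, 1 gene was higher and 0 lower, with a median of 0.02, while 16.3% of all tested genes were called, 7.67% higher and 8.65% lower. All 3 libraries lay below all 3 WT libraries in 1 member in d38, where 20.9% of all tested genes did so, and in 4 members in RRM2, against 16.3%. The gene called higher in d38 was ND-49 (4, 568296 to 571554), a core subunit at the quinone site of complex I. It stood at 153, 155 and 165 CPM in WT and 194, 189 and 187 in d38, without overlap, at a log2 fold change of 0.27 (SE 0.06, edgeR adjusted p = 0.00213). Its GFP libraries, at 173, 183 and 180 CPM, lay between the 2 groups. Without WT replicate 3 the medians were 0.09 in d38 and 0.06 in RRM2, the latter of the other sign, and the count in d38 was 2. The median of RRM2 against WT turned to 0.08 on the log2(TPM + 1) scale, where the median of all genes was 0.07. Once a length trend was removed it was 0.02, beside −0.01 for all genes. On log2(TPM + 1), limma called 22 genes in d38 against WT, all 22 higher, where 28.9% of all tested genes were called higher, all genes having shifted by 0.14 and the members by 0.20.

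Against GFP, the genes were lower in larger number and by more in Beta5, GSlinker and the SF1 mutant, the groups of the second library set. In Beta5, 56 of 68 genes fell and 1 rose, with a median log2 fold change of −0.69, where 57.3% of all tested genes were called and 29.3% were called lower. In GSlinker 58 fell and 1 rose, with a median of −0.80, against 63.7% of all genes called and 32.5% called lower. In the SF1 mutant 61 fell and 1 rose, with a median of −0.63, against 58.5% called and 30.1% called lower. The called falls reached every complex: in Beta5 they took in 29 of 34 genes of complex I, 5 of 5 of complex II, 4 of 6 of complex III, 8 of 11 of complex IV and 10 of 12 of complex V. In GSlinker complex IV had the lowest median, −1.03, beside −0.77 for complex I, −0.79 for complex II, −0.88 for complex III and −0.86 for complex V. All 3 libraries lay below all 3 GFP libraries in 59 members in Beta5, 59 in GSlinker and 58 for the SF1 mutant, where 33.9%, 35.3% and 30% of all tested genes did so. Estimated changes lay below 0 in 66, 64 and 65 of the 68 genes, beside 50.5%, 50.4% and 50.2% of all genes. Leaving out a library moved these counts of calls little, to between 55 and 57 in Beta5, 57 and 60 in GSlinker and 57 and 61 for the SF1 mutant (59 without its replicate 1, with a median of −0.77). On the log2(TPM + 1) scale, where the median of all genes shifted by 0.12 in GSlinker and 0.17 in the SF1 mutant, the members' medians were −0.58 and −0.46. These comparisons cross the library sets, and the part of the set in them cannot be told apart from that of the mutation.

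COX8 (3L, 21538859 to 21539447), a small subunit of complex IV, was the gene with the largest fall in all 3. It stood at 118, 106 and 111 CPM in GFP and at 29.4, 37.1 and 30.4 in Beta5 and 34.1, 28.0 and 31.7 in GSlinker, and the SF1 mutant libraries at 67.1, 32.3 and 31.1. Every one of those 9 libraries lay below every GFP library, and SF1 mutant replicate 1 lay above the other 8. The log2 fold change was −1.79 in Beta5 (SE 0.19, edgeR adjusted p = 3.22e-07), −1.84 in GSlinker (SE 0.20, adjusted p = 1.99e-07) and −1.34 for the SF1 mutant (SE 0.19, adjusted p = 5.62e-06). Without SF1 mutant replicate 1 the last value was −1.82. In WT, d38 and RRM2 the same gene stood between 73 and 90.0 CPM, below its GFP libraries in all 9, but did not pass the threshold (edgeR adjusted p = 0.0802, 0.0603 and 0.0634). COX4, which like COX8 is a nuclear subunit around the catalytic core, stood at 248, 205 and 231 CPM in GFP, 76.8, 118 and 93.6 in Beta5 and 77.8, 63.8 and 91.5 in GSlinker. Neither group overlapped GFP, at log2 fold changes of −1.25 and −1.55. In the SF1 mutant it stood at 154, 93.6 and 75 CPM, at −1.08, or −1.44 without replicate 1.

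In the other complexes the genes with the lowest fold changes, chosen after their values were seen, were the same in Beta5 and the SF1 mutant. They were ND-18 in complex I (−1.13 and −0.88 on the log2 scale), SdhC in complex II (−1.34 and −0.95), UQCR-Q in complex III (−1.07 and −1.22) and ATPsyndelta in complex V (−1.12 and −0.96). Without SF1 mutant replicate 1 the SF1 mutant values of these 4 genes were −1.21, −1.27, −1.42 and −1.26. In GSlinker SdhC, UQCR-Q and ATPsyndelta were again the lowest of their complexes, at −1.37, −1.42 and −1.24, while ND-B15 at −1.35 was the lowest of complex I. UQCR-Q (3L, 17474761 to 17476124), a small subunit of complex III, stood at 186, 176 and 185 CPM in GFP, 85.8, 86.2 and 87.8 in Beta5 and 59.0, 68.7 and 76.8 in GSlinker, with the SF1 mutant at 97.9, 65.7 and 70.3. All 9 of those libraries lay below the GFP range.

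Within one complex the change was uneven. ATPsyngamma stood at 1136, 998 and 1062 CPM in GFP, 479, 674 and 571 in Beta5 and 496, 435 and 549 in GSlinker, while the SF1 mutant had 825, 532 and 509, all lower than GFP. Its log2 fold changes were −0.89, −1.11 and −0.78, the last being −1.03 without SF1 mutant replicate 1. ATPsynbeta, which sits around that shaft in the same complex, stood at 1812, 2037 and 1992 CPM in Beta5 and at 1680, 1631 and 1790 in GSlinker, while the SF1 mutant had 1859, 1741 and 1647. All of these also lay below the GFP libraries at 2072, 2133 and 2167, but by less, at log2 fold changes of −0.13 (edgeR adjusted p = 0.0966), −0.32 (0.000198) and −0.28 (0.000823). In complex I, ND-75 changed by −0.75, −0.77 and −0.65 and ND-51 by −0.13, −0.30 and −0.31 in Beta5, GSlinker and the SF1 mutant, the Beta5 value of ND-51 not passing (adjusted p = 0.0993). In complex II, SdhB changed by −0.84, −0.79 and −0.56 and SdhA by −0.39, −0.44 and −0.42. In complex III, UQCR-C1 changed by −0.69, −1.04 and −0.74 and UQCR-C2 by −0.92, −0.94 and −0.85. COX5A, which binds to the matrix side of complex IV, changed by −0.54, −0.49 and −0.63. Differences between genes were not themselves tested.

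**Figure D3:**
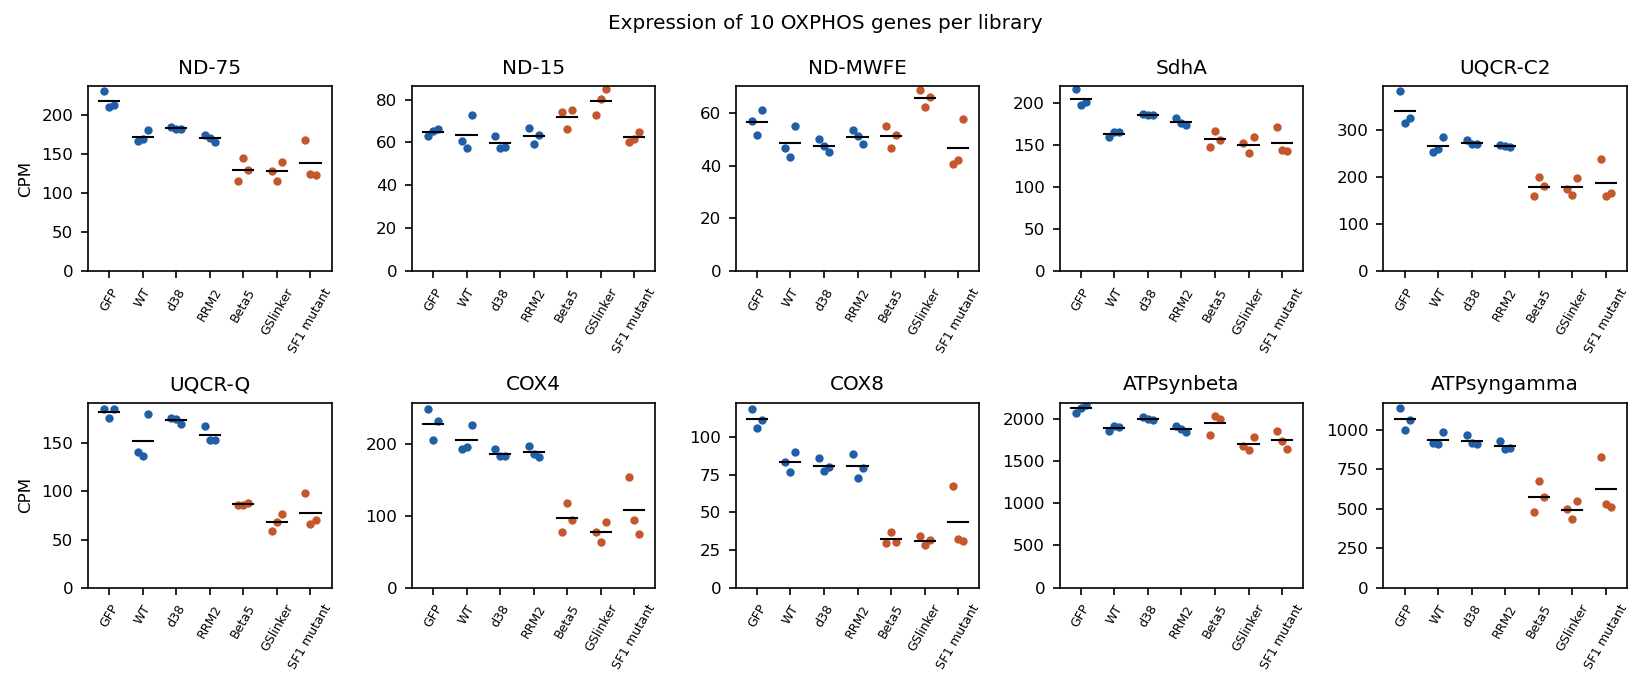
CPM in every library of 10 genes from the 5 complexes, with each axis starting at 0, where a point is a library and the line is the mean of a group. COX8, COX4, UQCR-Q and ATPsyngamma drop in Beta5, GSlinker and the SF1 mutant, while ATPsynbeta stays between 1631 and 2167 CPM and ND-15 and ND-MWFE do not drop in GSlinker in CPM. With counts scaled by effective length ND-MWFE in GSlinker turns from 0.44 to −0.11 against WT and from 0.22 to −0.69 against GFP.

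Few genes did not pass the threshold in Beta5, GSlinker or the SF1 mutant, and most of those still had negative estimates. Not called in Beta5 against GFP were ND-15, ND-49, ND-51, ND-MWFE, UQCR-11, UQCR-14, ATPsynbeta and the 4 L paralogs COX4L, COX7AL, COX7CL and ATPsynepsilonL. In GSlinker ND-49, ND-51L2, ND-MWFE, UQCR-11, UQCR-14 and the same 4 paralogs were not called, and in the SF1 mutant ND-15, Sdhaf3 and those paralogs. ND-15 (2L, 114726 to 156030), an accessory subunit of complex I, rose in GSlinker, from 63.2, 65.2 and 66.2 CPM in GFP to 73, 80.2 and 84.9, without overlap. Its log2 fold change was 0.29 (SE 0.08, edgeR adjusted p = 0.00311). ND-MWFE (2R, 13158666 to 13160190), a small membrane subunit of complex I, stood at 46.9, 43.2 and 55.1 CPM in WT and 68.8, 62.3 and 66.0 in GSlinker, a log2 rise of 0.44 (SE 0.11, edgeR adjusted p = 0.00202). Against its GFP libraries, at 57.0, 51.4 and 61.1 CPM, the difference was 0.22 and did not pass (adjusted p = 0.0910). The direction turned on length-corrected scales. In TPM the gene stood at 235, 218 and 251 in GFP, 154, 140 and 171 in WT and 174, 151 and 163 in GSlinker, so all GSlinker libraries lay below GFP and overlapped WT. With counts scaled by effective length the log2 fold change in GSlinker was −0.69 against GFP (edgeR adjusted p = 8.49e-06) and −0.11 against WT (adjusted p = 0.330).

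ND-49 rose in Beta5 against WT, by 0.15 on the log2 scale (SE 0.06, edgeR adjusted p = 0.0297). The remaining gene called higher was the paralog ND-51L2 (2R, 15296764 to 15298329), which passed the filter only through a few libraries with counts. It had 0, 1 and 0 counts in GFP, 2, 3 and 0 in WT, 4, 7 and 12 in Beta5 and 17, 12 and 5 in the SF1 mutant. It is the 1 gene counted as higher against GFP in Beta5 and in the SF1 mutant, and it is counted among the higher genes of both against WT, but at these counts nothing is read from it. GSlinker, with 0, 1 and 4 counts, d38, with 0, 2 and 1, and RRM2, with 2, 6 and 2, were not called. The other L paralogs past the filter were not called against GFP in any group. COX7CL lies 281 bases from COX7C on 2R, and COX7AL 2625 bases from COX7A on 3R. Whether reads of one gene of a pair were assigned to the other was not tested.

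Against WT the same 3 altered forms were also lower, in comparisons that share the WT libraries. In Beta5, 52 of 68 genes fell and 2 rose, with a median log2 fold change of −0.50, where 54% of all tested genes were called and 29.1% were called lower. In GSlinker 55 fell and 2 rose, with a median of −0.62, against 58.1% and 30.8%. In the SF1 mutant 53 fell and 1 rose, with a median of −0.46, against 49.2% and 25.6%. The largest called fall was COX8 in Beta5 (−1.37, edgeR adjusted p = 1.12e-05) and in GSlinker (−1.42, adjusted p = 7.82e-06), and UQCR-Q in the SF1 mutant (−0.97, adjusted p = 4.68e-06). All 3 libraries lay below all 3 WT libraries in 55, 56 and 41 members in the same order, where 33.1%, 32.8% and 24.7% of all tested genes did so. Some genes lower in WT than in GFP did not differ further past the threshold: SdhA stood at −0.06, −0.12 and −0.10 against WT, and ND-B14 at 0.09, −0.09 and −0.07. The medians without WT replicate 3 were −0.41 in Beta5, −0.52 in GSlinker and −0.37 for the SF1 mutant, and without SF1 mutant replicate 1 the last was −0.62. Without WT replicate 3, 45 genes fell and 3 rose in Beta5, 49 fell and 3 rose in GSlinker, and 37 fell and 1 rose in the SF1 mutant. Without SF1 mutant replicate 1, 57 fell and 1 rose in the SF1 mutant.

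Because the genes are short, each change was read against the trend of change on transcript length over all tested genes. In WT against GFP the trend at the members' lengths was slightly positive, at a median of 0.03 on the log2 scale, and removing it gave a median of −0.20 and 33 genes lower, 0 higher. Of all tested genes 19.1% were called lower after that removal. In RRM2 the trend was −0.01, the median after removal −0.19 and 24 genes were lower (all genes 15.7%). In d38 the trend was −0.05, the median after removal −0.10 and 15 genes were lower (all genes 18%). In the second library set short genes were lower in general. There the trend at the members was −0.22 in Beta5, −0.27 in GSlinker and −0.24 for the SF1 mutant, and the medians after removal were −0.48, −0.57 and −0.43. After removal 51, 54 and 51 genes were lower in these 3 groups, against 27.5%, 31.4% and 28.1% of all genes. Against WT the medians after removal were −0.26 in Beta5, −0.35 in GSlinker and −0.22 for the SF1 mutant. There 36, 44 and 32 genes were lower, against 24.5%, 28.6% and 19.1% of all genes, and 8, 6 and 5 were higher, against 24.4%, 27.2% and 21.1%. In d38 against WT 12 genes were higher and 0 lower after removal (all genes 8.33% and 9.93%), and in RRM2 against WT 0 were higher and 0 lower (all genes 4.87% and 5.17%).

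**Figure D4:**
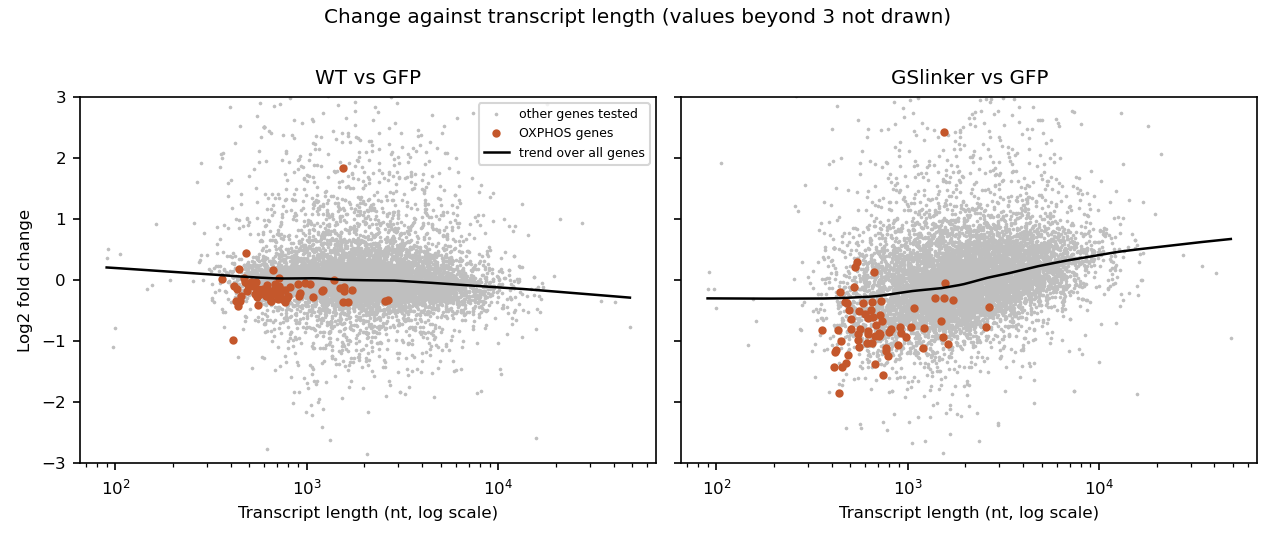
Log2 fold change against transcript length (log scale, nt) for WT and GSlinker against GFP, where grey points are other tested genes, orange points the 68 oxidative phosphorylation genes and the black line the trend over all genes. In WT the line is near 0 at the members' lengths (median 0.03) and the members' median is −0.16, while in GSlinker the line is at −0.27 and the members' median is −0.80.

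Taken in length classes, members had a lower median than the other genes of the same class, in each class of both comparisons plotted. In WT against GFP the 26 members under 600 nt had a median log2 fold change of −0.15, against 0.08 for the 387 other genes. The 28 members of 600 to 1000 nt had −0.19 against 0.03, and the 14 longer members −0.17 against −0.01. In GSlinker against GFP the medians were −0.81 against −0.16, −0.87 against −0.21 and −0.56 against 0.03 in the same classes. These medians were described and not tested. The class over 1000 nt has no upper limit, and its other genes were not matched to the members in length.

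Isoform usage was examined in the 50 members with more than 1 transcript past the filter, as each transcript's share of its gene's TPM. By limma on the logit-like scale of the shares, 6 of 50 changed in WT against GFP, 12 in d38 and 11 in RRM2, where 17.3%, 13.5% and 14.4% of all 4500 genes tested were called. Usage changed in 22 genes in Beta5, 26 in GSlinker and 20 for the SF1 mutant, against 34.2%, 43.6% and 38% of all genes. By edgeR's F test the counts in the same order of 6 groups were 6, 13, 17, 24, 30 and 27, against 18.5%, 16.9%, 17.9%, 36.3%, 45.2% and 36.7% of all genes. In WT 12% of the members were called by limma, not far from the share of all genes, and nothing is read from the difference. The d38 count was 3 without GFP replicate 1, 6 without d38 replicate 2 and 5 without d38 replicate 3. The RRM2 count was 3 without GFP replicate 1, 6 without RRM2 replicate 2 and 4 without RRM2 replicate 3. Called in all 6 LS2 groups against the shared GFP libraries were 4 of the 50, ATPsynC, ATPsynCF6, ND-ACP and ND-MWFE, where 5.2% of all genes tested were.

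ATPsynCF6 (3R, 23355220 to 23356064, minus strand), of the outer stalk of the ATP synthase, has a transcript whose estimated share was small in GFP and larger in the LS2 groups. This transcript, RA, ends 60 nt short of RC at the 3′ end and has the same coding exons. It lies wholly within RC and has no intron of its own, so no stretch of sequence is particular to it. Its share is thus an estimate that rests on coverage near that end and on effective lengths, which differ between the library sets. RA held an estimated 0.00, 3.25 and 0.000375% of the gene in GFP. It held 6.97, 13.4 and 20.8% in WT, 27.0, 32.7 and 46.4% in d38 and 28.7, 35.0 and 45.1% in RRM2. It held 48.1, 61.1 and 56.5% in Beta5 and 57.6, 52.7 and 53.4% in GSlinker, with the SF1 mutant at 59.5, 43.1 and 60.4%. No LS2 library overlapped GFP, and no library of an altered form overlapped WT. Against GFP the limma adjusted p was 0.00131 in WT, 5.17e-05 in d38, 3.36e-05 in RRM2 and 1.89e-06 in Beta5. Against WT it was 0.0410 in d38 (0.196 by edgeR), 0.0864 in RRM2, 0.000315 in Beta5, 0.000291 in GSlinker and 0.00051 for the SF1 mutant. Fitted on WT and GFP libraries alone the WT adjusted p was 0.102, and that of ATPsynC, described below, was 0.0594.

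ND-MWFE showed the largest change among members called by both tests in WT. Transcripts RA and RB leave the same 5′ splice site (intron start 13159104) for different last exons, at intron ends 13159533 in RA and 13159730 in RB, and the annotation gives them 73 and 123 codons. RB held 14.1, 16.7 and 15.9% of the gene in GFP and 34.4, 39.3 and 33.9% in WT. It held 27.2, 29.5 and 27.9% in d38, 39.7, 37.1 and 43.0% in RRM2. RB reached a higher share in the second library set: 73.2, 57.7 and 63.8% (Beta5), 77.8, 82.1 and 73.7% (GSlinker) and 55.2, 61.1 and 74.5% (SF1 mutant). All 18 LS2 libraries lay above GFP, the d38 libraries lay below WT, and the 9 libraries of the second set lay highest. The share of RA fell by 20.3 percentage points in WT (limma adjusted p = 0.00112), 12.6 in d38 (0.0222), 24.3 in RRM2 (0.00057). For Beta5, GSlinker and the SF1 mutant it fell by 49.3 (limma adjusted p = 1.11e-06), 62.3 (4.46e-08) and 48.0 (1.01e-06) points. Against WT the limma adjusted p was 0.347 in d38 and 0.800 in RRM2, and 0.000385, 9.90e-06 and 0.000734 in Beta5, GSlinker and the SF1 mutant.

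ND-75 had its largest differences in other groups. Its transcript RA has an intron of its own (8251389 to 8251596) outside the coding span, starts 236 nt farther upstream than RB and has the same coding exons. RA held 24.1, 42.1 and 45.3% of the gene in GFP, 61.5, 58.4 and 47.8% in WT, 55.3, 74.6 and 70.4% in d38 and 60.8, 74.4 and 82.3% in RRM2. It held 89.5, 80.1 and 94.1% in Beta5 and 90.0, 92.6 and 91.0% in GSlinker, with the SF1 mutant at 76.7, 88.4 and 86.8%. Every LS2 library lay above the GFP libraries, with WT replicate 3 closest to them. The limma adjusted p was 0.164 in WT, 0.0311 in d38, 0.00976 in RRM2, and for Beta5, GSlinker and the SF1 mutant 7.32e-05, 2.09e-05 and 0.000217. The RRM2 call was lost without GFP replicate 1 or RRM2 replicate 3, and in a fit of the 2 groups alone.

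The other genes called in all 6 groups were ATPsynC and ND-ACP. ATPsynC transcript RA starts 579 nt farther upstream than RG, ends 625 nt farther downstream and has the same coding exons. It also has an extra intron outside the coding span (31219049 to 31219535). RA held 29.3, 34.9 and 37.5% of the gene in GFP and 56.7, 49.2 and 49.6% in WT (limma adjusted p = 0.00582). Across the 15 libraries of altered forms it held 40.9 to 65.3%, all above GFP. ND-ACP (3L, 1329949 to 1331631), the acyl carrier protein of complex I, has transcripts RA and RB that use different internal coding exons, for 152 and 143 codons. RB held 32.7, 35.3 and 34.4% of the gene in GFP and 43.9, 45.9 and 45.4% in WT (limma adjusted p = 0.00427), and between 46.5 and 58.1% in the altered forms. No LS2 library overlapped GFP for either gene. The summed level of ND-ACP did not pass the threshold in WT against GFP (log2 fold change −0.06, edgeR adjusted p = 0.686), while that of ATPsynC fell as given above.

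**Figure D5:**
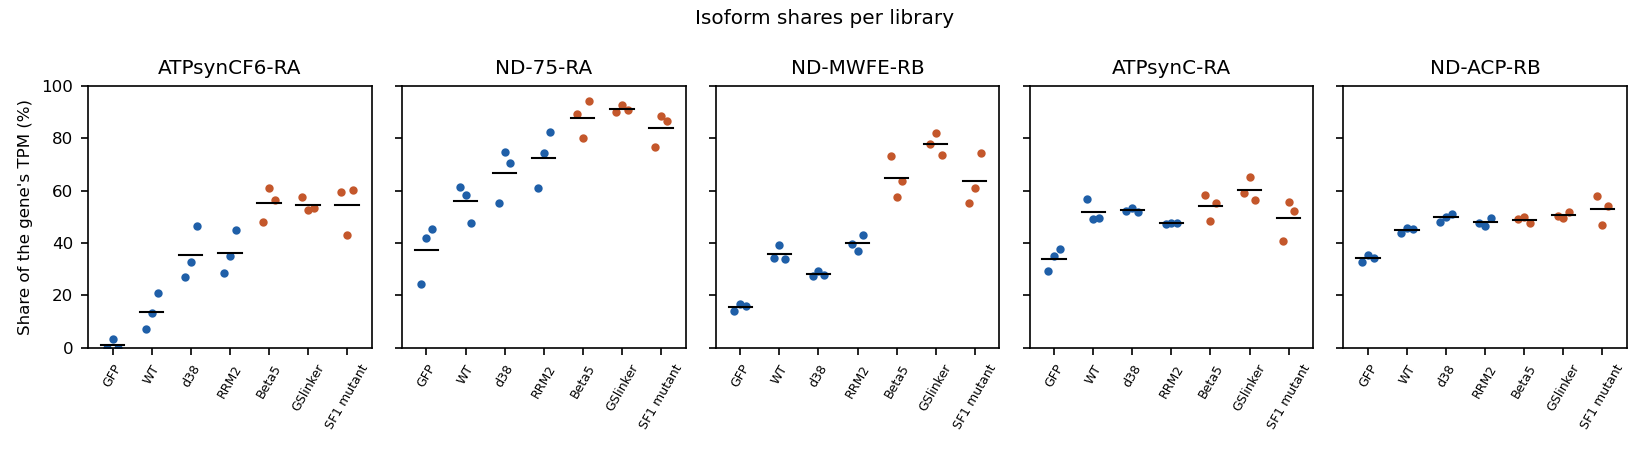
Share (%) of the gene's TPM held by 5 transcripts in every library, where a point is a library and the line is the mean of a group. The estimated share of ATPsynCF6-RA rises from a mean of 1.08% in GFP to 13.7% in WT and 55.2% in Beta5. That of ND-MWFE-RB is highest in GSlinker, at 73.7 to 82.1%.

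Electron transport and ATP synthase genes that the name rule leaves out, among them the carrier cytochrome c, were likewise lower against GFP where they were called. Of 8 tested, 2 fell in WT, 1 in d38 and 2 in RRM2, while Beta5 had 6 lower and GSlinker and the SF1 mutant 7 each, and 0 rose in any of these against GFP. Of all tested genes 17.1%, 15.2%, 12.7%, 29.3%, 32.5% and 30.1% were called lower in the same order. With so few genes, nothing is read from the counts in WT, d38 and RRM2. The largest called change in WT was that of blw, the alpha subunit of the ATP synthase, at a log2 fold change of −0.39 (SE 0.08, edgeR adjusted p = 0.000953). In GSlinker the complex IV subunit gene cype stood at −1.71 and the Rieske iron-sulfur subunit gene of complex III, RFeSP, at −1.43, both chosen, like Cyt-c1, after their values were seen. Cyt-c1 of complex III, in contrast, stood at 0.00 in GSlinker and −0.12 in WT and was not called in any group against GFP. Against WT 1 of the 8 was called higher, the cytochrome c gene Cyt-c-p in d38, at 0.21 (SE 0.07, edgeR adjusted p = 0.0443).

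Other mitochondrial and energy genes were counted in the same comparisons, where the share of all tested genes called lower was 17.1% (WT), 15.2% (d38) and 12.7% (RRM2) in the first library set and 29.3% (Beta5), 32.5% (GSlinker) and 30.1% (SF1 mutant) in the second. The share called higher was 17.1%, 15.1%, 12.3%, 28%, 31.1% and 28.4% in the same order. Of 18 genes of pyruvate dehydrogenase and the tricarboxylic acid cycle, 6 fell and 0 rose in WT, with a median log2 fold change of −0.12. The largest was kdn, citrate synthase, at −0.56 (SE 0.11, edgeR adjusted p = 0.000359). In d38 3 of the 18 fell and 2 rose, and in RRM2 3 fell. In Beta5 10 fell, in GSlinker 11 fell and 2 rose, and in the SF1 mutant 13 fell, with medians of −0.21, −0.23 and −0.37. Of 13 glycolysis genes 2 fell in WT, with a median of 0.00, the larger change being that of Pfk, phosphofructokinase, at −0.44 (SE 0.10). In d38 1 fell and 1 rose and in RRM2 1 rose. In Beta5 6 fell and 3 rose, in GSlinker 10 fell and 1 rose, at a median of −0.38, and in the SF1 mutant 2 fell and 2 rose. Of 9 assembly factors 2 fell in WT, with a median of −0.15, the larger fall being sicily, a complex I factor, at −0.29. In d38 and RRM2 1 each fell, while Beta5 and GSlinker had 5 lower and the SF1 mutant 4, and 1 was higher in each of d38, Beta5, GSlinker and the SF1 mutant. Of 8 regulators of mitochondrial genes 1 rose in WT, ewg, the fly relative of NRF1, at 0.48 (SE 0.10, edgeR adjusted p = 0.00100). In d38 1 rose and 1 fell and in RRM2 1 rose. Beta5 had 4 higher and 3 lower, GSlinker 3 and 3, and the SF1 mutant 2 and 3. Of 4 carrier and porin genes 2 fell and 1 rose in WT, the latter Ant2, an ADP/ATP carrier, at 1.03 (SE 0.10, edgeR adjusted p = 9.15e-08). In d38 1 rose and 1 fell, in RRM2 1 rose and 2 fell, Beta5 had 4 lower, and GSlinker and the SF1 mutant 3 each.

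The ribosomal protein genes were counted beside them. Of 73 mitochondrial ribosomal protein genes 8 rose and 5 fell in WT, with a median log2 fold change of 0.00, and mRpS14 changed most, at −0.47. Of 87 cytosolic ones 10 rose and 1, RpS19b, fell in WT, with a median of 0.04. Of all tested genes 17.1% were called higher in WT, a larger share than in either list. For the cytosolic list the WT libraries stood at −0.02, −0.04 and 0.19, with only replicate 3 above 0. In d38 against GFP 50 of the cytosolic genes fell, at a median of −0.34, where 11 of the 68 oxidative phosphorylation genes had. In Beta5, GSlinker and the SF1 mutant the cytosolic median was −0.52, −0.73 and −0.62 and the mitochondrial ribosomal median −0.31, −0.41 and −0.31. Per library, WT replicate 3 was also the highest of its group in both ribosomal lists, at 0.19 and 0.13, and SF1 mutant replicate 1 at −0.38 and −0.14. Their part in the results above was not tested. Of the 8 mitochondrially encoded genes tested, edgeR called 0 in WT, with a median log2 fold change of 0.37, while 2 had an unadjusted p under 0.05. In d38 3 were higher and 0 lower, at a median of 0.60, and in the SF1 mutant 3 and 0, at 0.43. Of all tested genes 15.1% were called higher in d38 and 28.4% in the SF1 mutant. SF1 mutant replicate 2 stood highest: mt:CoII had 1870, 4801 and 2353 CPM against 1886, 1902 and 2380 in GFP. Only replicate 2 lay above GFP for that gene, while for mt:CoI all SF1 mutant libraries did, at 5780, 9851 and 7329 CPM. RRM2 had 0 higher and 2 lower (0.18), Beta5 1 and 0 (−0.00) and GSlinker 2 and 1 (0.11).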

How the data were processed

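The data are 21 abundance tables, 1 per library, from S2 cells in 7 groups of 3, grouped by the labels. Per the file headers, each deposited table lists 30594 transcripts, with columns for length, effective length, estimated counts and TPM. The authors' estimated (expected) counts are not scaled between libraries, and the authors' TPM values divide counts by effective length. The submitters' processing notes name kallisto and STAR and the builds dm6 and BDGP6. Versions and the annotation release were not given in the sources used here.

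Transcripts were matched to the BDGP6 annotation of Ensembl release 115, the source of all coordinates. A gene was found for 30242 (98.8%), and the 352 others, holding 1.378% of counts, were left out. Counts and TPM were summed per gene and counts rounded to whole numbers. Genes were tested by the quasi-likelihood method of edgeR 4.0.16 under R 4.3.3 (TMM scaling with factors 0.958 to 1.05, filterByExpr with a count minimum of 10, 21 libraries in 1 fit, 14 residual degrees of freedom). Adjustment for multiple testing followed Benjamini and Hochberg, over the 8750 genes of each comparison. An SE is the log2 fold change over the square root of F, which can be too small at few counts. Isoform usage was tested with limma 3.58.1 on log2((share + 0.01) / (1 − share + 0.01)) over 14636 transcripts, with a Simes p per gene. edgeR's F test was the alternative, and DESeq2 1.42.0, other scalings and left-out libraries were also tried. The length trend was a lowess curve of span 0.3.

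Tests were checked on simulated data: in the expression test on 8653 genes edgeR found 88.8% of the genes changed, with 3.87% false calls. The share found belongs to the size of change used there. The share found at changes as small as the members' medians in WT, d38 and RRM2 was not tested. With a simulated length trend, 95.0% of calls were false without its removal and 3.37% with it. That trend was linear, placed on WT alone and steeper than the one measured between WT and GFP, whose median at the members was 0.03. These shares of false calls therefore do not carry over to the measured comparisons. In isoform usage limma recovered 39.3% with 3.75% false calls, and edgeR's F test 36.7% with 37.9%.

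Genes named are those past the threshold with the largest changes per complex in WT against GFP (up to 5), the largest called rise and fall in each other comparison, 10 core subunits whatever their values, the L paralogs past the filter, the largest called change of each list in WT against GFP, and the isoforms with the largest changes called by both tests. Members and lists were chosen with earlier results of these data known. No sequence was used here.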

Additional observations from a re-analysis of the deposited data

How the results depend on the processing

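Counts of called genes among the 68 changed most in the first library set. The counts below show only how far calls depend on the setting. For most settings the share of all tested genes called is not given, so a larger or smaller count is not read as a result about the members. The WT count of 19 became 33 with the length trend removed, 34 with the trend fitted without oxidative phosphorylation and ribosomal genes, and 30 in a fit of the first set alone. The d38 count of 11 became 6 by limma on log2(TPM + 1), 24 in the first set alone and 37 in the 2 groups alone. The RRM2 count of 19 became 7, 33 and 42 under the same 3 settings. Against WT, d38 had 12 and 7 genes under the trend removals, 22 by limma on log2(TPM + 1), 4 in the first set alone, 3 in the 2 groups alone and 2 by DESeq2. RRM2 had 2 in the first set alone, and the SF1 mutant 35 in the 2 groups alone. For isoforms, the 2 groups alone gave 3 in WT, 7 in RRM2 and 11 in the SF1 mutant, and edgeR's F test gave 17 in RRM2. Leaving out a library gave 6 to 27 genes in WT, 3 to 13 in d38, 5 to 20 in RRM2 and 1 to 2 in d38 against WT. For isoforms it gave 3 to 11 in both d38 and RRM2. ATPsynbeta in GSlinker against WT turned to 0.073 by limma on log2(TPM + 1), where the median of all genes was 0.13. ND-MWFE in the same comparison turned to −0.11 with counts scaled by effective length. The causes were not tested. For named genes past the threshold, 1188 other values under alternatives kept direction and side of the threshold and 165 kept direction but no longer passed. Of 98 named values that had not passed, 43 changed sign under at least 1 alternative. Replicate numbers did not pair the libraries, with correlations of same-numbered deviations from −0.211 to 0.133. With the replicate block the counts against GFP were 17 (WT), 11 (d38) and 18 (RRM2), and the second library set had 57 in Beta5, 59 in GSlinker and 62 for the SF1 mutant. Depth limits the L paralogs, where a few counts decide a value.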
